A study of Homo sapiens with 2 samples.

Results

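The genes described here are the transcription factors of the SOX, KLF and POU families on the array, together with NANOG, LIN28, SALL4 and UTF1, which act with them in pluripotent cells. They were taken by name from the gene names that the array gives its probes: SOX or KLF followed by a number, POU followed by class and factor number, and these 4 single genes. This gave 54 genes of 30484 names on the array, measured by 86 of 41000 probes, each spotted once. There were 19 SOX genes with 34 probes, 17 KLF genes with 28 probes, 14 POU genes with 20 probes and the 4 single genes with 1 probe each. The rule itself used no measured value, although it was set with earlier results of these data known.

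SAS is a human squamous cell carcinoma line from a tongue tumor, grown in serum-containing medium. eSAS is the cell population obtained from SAS cells after 5 rounds in which large spheroids were collected with Spheroid Catch, a tool with a removable filter membrane. Total RNA, 200 ng of each, was labelled with Cy3 and hybridised to 1 array of SAS and 1 array of eSAS, both on the same slide, so no replicate culture was measured, the populations could not be tested against each other and all folds describe these 2 arrays. Values below are processed signals of the scanner software, an intensity after background correction, and log2 ratios of eSAS minus SAS after scaling each array to its own 75th percentile (1242 for SAS, 1196 for eSAS).

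SOX proteins bind a short DNA sequence in the minor groove through an HMG box, and they usually act beside a partner protein. KLF proteins bind GC boxes and CACCC boxes through zinc fingers at their C-terminal end, and family members differ in whether they recruit activators or corepressors. POU proteins bind the octamer sequence with a bipartite domain. In pluripotent cells OCT4, the product of POU5F1, binds beside SOX2 on many regulatory elements, while KLF4, NANOG and SALL4 occupy many of the same elements. In stratified epithelia such as that of the tongue, other members have roles of their own, among them SOX2 in basal progenitors, KLF5 in proliferating basal cells, KLF4 in differentiating layers and POU2F3 in keratinocyte differentiation.

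Most members that could be measured lay close together on the 2 arrays. Of the 86 probes, 51 were well above background on both arrays by the software's own criterion, 4 on 1 array, and 31 on neither. Counted by gene, 34 of the 54 had a probe well above background on both arrays, 3 had one on a single array only, and 17 had none. Over the 34 genes the median log2 ratio was -0.04, with 13 genes above 0 and 21 below, against a median of -0.0012 over all 19467 genes, of which 49.8% were above 0. Of the 51 member probes measured on both arrays, 92.2% lay within 1.5-fold, against 92.0% of all probes. Over these 51 probes the error of a log2 ratio, from the software's errors of both signals, ran from 0.20 to 0.45. Its median was 0.20, and smaller log2 ratios of single probes lie within it. The plot of levels shows these probes on both arrays.

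**Figure D1:**
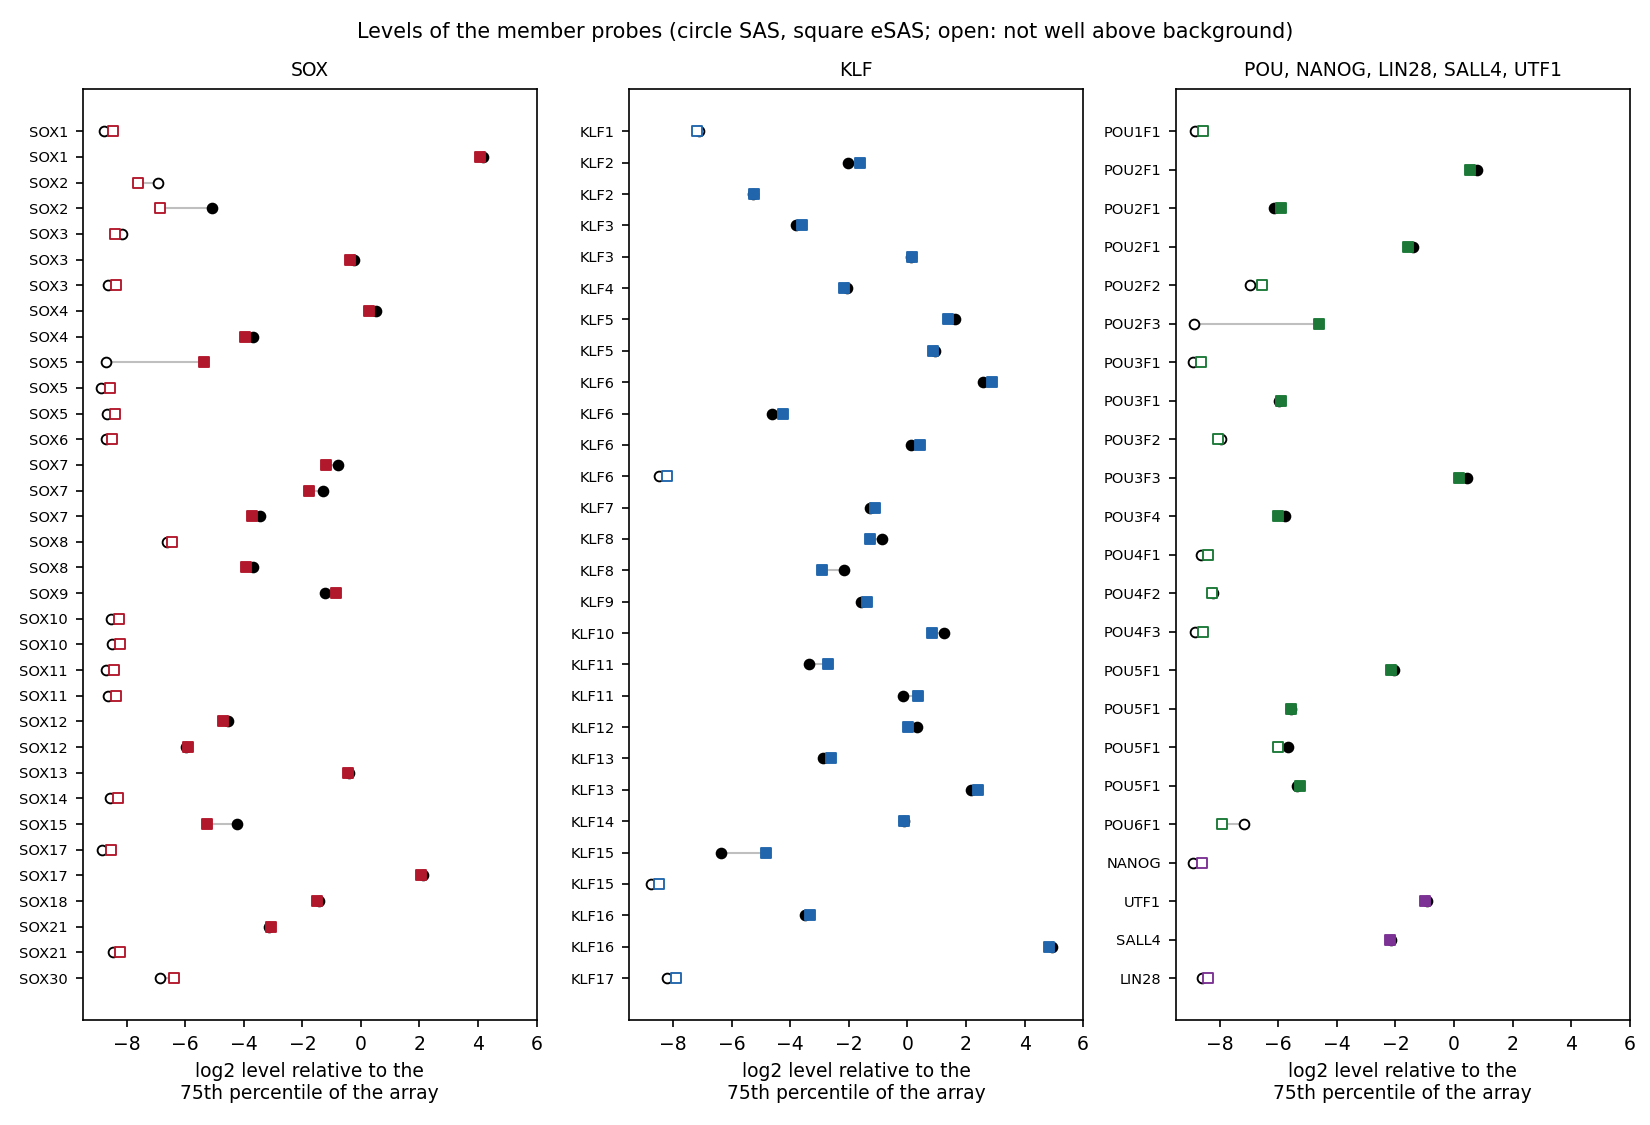
Log2 level of 85 of the 86 member probes relative to the 75th percentile of each array, with 1 row per probe and the gene name on the vertical axis. Circles are SAS, squares are eSAS and open symbols are not well above background. Most pairs of symbols overlap, while SOX2, SOX5, SOX15, KLF15 and POU2F3 each have 1 probe with a wide gap.

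Of the 55 member probes well above background on at least 1 array, 3 were at least 2-fold higher in eSAS, or 5.45%, against 1.83% of all 28439 such probes. They belonged to POU2F3, SOX5 and KLF15. Another 2, or 3.64%, were at least 2-fold lower, against 1.97% of all, and they belonged to SOX2 and SOX15. At 1.5-fold a KLF11 probe and a KLF8 probe were added, giving 4 higher against a background of 4.43% and 3 lower against a background of 6.12%. The 1.5-fold counts correspond to 7.27% higher and 5.45% lower, and each share rests on 4 probes or fewer. Some probes were well above background on 1 array only. Their dim side was raised to the faintest signal well above background on that array (12.8 for SAS, 15.2 for eSAS) unless it already exceeded that. The fold is then called a lower bound. It is one by convention and under this background correction only. Signals not well above background can exceed these limits, as a POU5F1 probe did with 18.6 in eSAS.

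The SOXB1 genes SOX1, SOX2 and SOX3 encode activators of neural and stem cell programs. SOX2, whose protein the study followed by Western blotting, had 2 probes. The probe on chromosome 3 of hg18 from 182913440 to 182913499 had a processed signal of 36.9 on the SAS array, with a software error of 4.74, and 10.4 on the eSAS array, where it was not well above background. SOX2 was thus at least 2.34-fold lower in eSAS by this probe. With normexp fitted on all spots, a fit that moved the median of all genes to 0.68, the bound pointed the other way and was not kept. That fit put the background mean of the eSAS array at -773, against 6.02 when 26 marked spots were left out. The other SOX2 probe, from 182914571 to 182914630 on the same chromosome, gave 10.1 and 6.16. It was not well above background on either array, so it gives no fold. The SOX2 spot was faint before any correction, with a mean pixel intensity of 86.2 in SAS and 60.7 in eSAS over local backgrounds of 29 and 31. SOX2-OT, the long noncoding transcript that overlaps SOX2, was measured by 1 probe and was not well above background on either array. The SOX2 promoter is shown because SOX2 is the pluripotency gene of the set with a fold of at least 2. Its 250 bases before the start, at chr3:181711675-181711924 on the plus strand of GRCh38.p14 in RefSeq, hold 1 GC box, marked in capitals.
SOX2: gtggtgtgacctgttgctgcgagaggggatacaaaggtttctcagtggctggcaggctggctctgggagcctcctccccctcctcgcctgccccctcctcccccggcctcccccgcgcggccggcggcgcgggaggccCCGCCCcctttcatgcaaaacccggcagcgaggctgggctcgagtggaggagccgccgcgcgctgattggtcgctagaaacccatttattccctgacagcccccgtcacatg

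SOX1 and SOX3 were measured at closer levels. One SOX1 probe gave 22473 in SAS and 19988 in eSAS, a log2 ratio of -0.11, while its other probe was not well above background on either array. For SOX3, 1 probe gave 1061 and 921, a log2 ratio of -0.15, and the other 2 probes were not well above background. In SOX1 and in SOX3 the value therefore rests on a single probe, and the gene's other probes did not show that signal. The other SOX1 probe gave 2.85 in SAS and 3.36 in eSAS. Of the SOXB2 genes, which encode repressors, SOX21 was a little higher in eSAS at 0.09 by 1 of its 2 probes and SOX14 was not well above background.

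SOX15, a gene related in sequence to the SOXB1 group and the lone member of its own group, had the lowest log2 ratio of the 34 genes. Its single probe, on chromosome 17 of hg18 from 7433753 to 7433812, gave 66.9 in SAS with a software error of 7.54 and 31.2 in eSAS with a software error of 5.10. SOX15 was therefore 2.07-fold lower in eSAS, a log2 ratio of -1.05 with an error of 0.29 from the software alone, but it turned to 2.31 with normexp fitted on all spots, a fit that moved the median of all genes to 0.68.

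SOX5, SOX6 and SOX13 form the SOXD group, whose products lack an activation domain and shape the action of other SOX factors. SOX5 had 3 probes, and the one on chromosome 12 of hg18 from 23578397 to 23578456 gave 3.01 in SAS, where it was not well above background, and 29.5 in eSAS. By this probe SOX5 was at least 2.38-fold higher in eSAS, with mean pixel intensities of 47.8 and 80.3. The other 2 SOX5 probes, which lie between 23576481 and 23576620, were not well above background on either array. SOX13 differed little, at -0.03, and SOX6 was not well above background on either array. The SOX5 promoter, at chr12:24562492-24562741 on the minus strand of GRCh38.p14 in RefSeq, is shown because a SOX5 probe was at least 2-fold apart. It holds 2 SOX cores along with 1 GC box, all in capitals.
SOX5: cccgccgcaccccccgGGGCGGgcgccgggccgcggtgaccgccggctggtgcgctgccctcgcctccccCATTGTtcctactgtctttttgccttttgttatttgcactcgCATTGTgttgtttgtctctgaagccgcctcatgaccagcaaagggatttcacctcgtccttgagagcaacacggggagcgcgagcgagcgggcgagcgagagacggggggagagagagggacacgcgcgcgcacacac

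The SOXC gene SOX4, which encodes an activator active in progenitor and carcinoma cells, was lower by both probes. Its signals were 1760 and 1452 by the first probe, a log2 ratio of -0.22, and 97.6 and 76.2 by the second, a log2 ratio of -0.30. The mean log2 ratio of SOX4 was -0.26. It was 0.79 with normexp fitted on all spots, where the median of all genes was 0.68. SOX12, of the same group, had a mean log2 ratio of -0.07 from probes on both sides of 0, and SOX11 was not well above background by either probe.

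The SOXF genes SOX7, SOX17 and SOX18 are known from endoderm and blood vessel development. SOX17 gave 5375 in SAS and 4917 in eSAS by 1 probe, a log2 ratio of -0.07, while its other probe was not well above background. SOX7 had the lowest ratios of the group, with 3 probes that all lay below 0, from -0.27 to -0.51, and SOX18 lay at -0.08. SOX7 and the remaining genes given here by log2 ratio alone were picked outside the rule for named genes, as the other members of a group.

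Among the SOXE genes, which act in cartilage, glia and neural crest, SOX9 was the SOX gene with the highest log2 ratio measured on both arrays. Its probe gave 527 in SAS and 664 in eSAS, a log2 ratio of 0.39. SOX8 lay at -0.21 by 1 of its 2 probes, and SOX10 and SOX30, the latter of another group, were not well above background. Over the 12 SOX genes measured on both arrays the median log2 ratio was -0.10, with 2 above 0 and 10 below. Relative to all genes, however, this median was 0.11 with normexp fitted on all spots and 0.031 with no filter on dim probes. The normexp fit on all spots is the one with an eSAS background mean of -773.

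**Figure D2:**
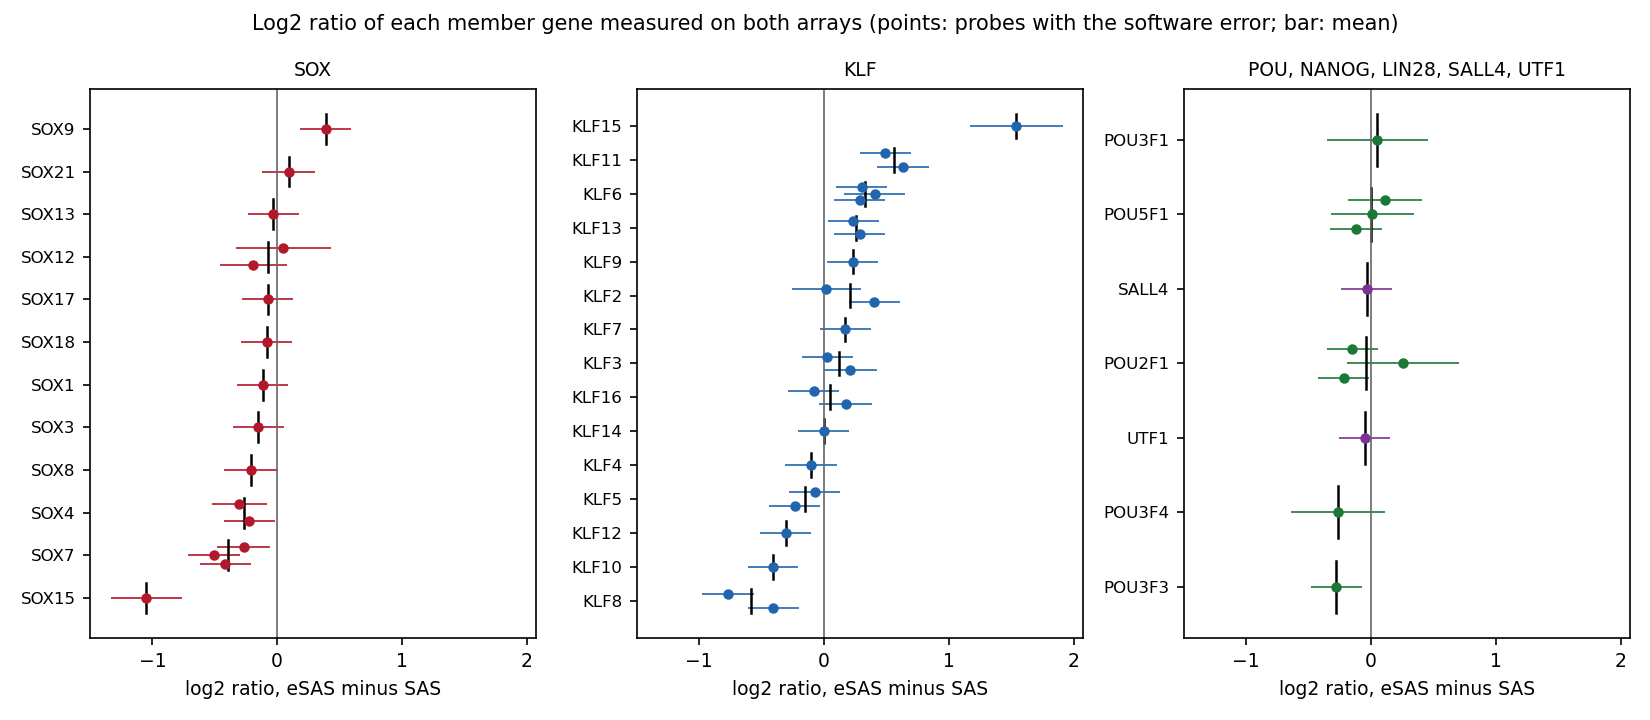
Log2 ratio of eSAS minus SAS for the 34 member genes measured on both arrays, by family, ordered by their mean. Points are probes, horizontal bars the software error of the ratio and vertical bars the mean over a gene's probes; KLF15 lies at 1.54 and SOX15 at -1.05, and the rest between -0.59 and 0.56.

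Of the KLF genes, 15 of 17 were measured on both arrays, and only KLF1, an erythroid factor, and KLF17 were not well above background. Their median log2 ratio was 0.12, with 9 above 0 and 6 below. Relative to all genes, however, this median was -0.014 with normexp fitted on all spots, the fit with an eSAS background mean of -773. KLF15, which is known from gluconeogenesis and as a gene induced by glucocorticoids, had the highest log2 ratio of the 34 genes. Its probe on chromosome 3 of hg18 from 127545146 to 127545205 gave 15.0 in SAS with a software error of 3.33 and 42.2 in eSAS with a software error of 5.47. KLF15 was 2.91-fold higher in eSAS by this probe, a log2 ratio of 1.54 with an error of 0.37, while its other probe, from 127544379 to 127544438, was not well above background on either array. The KLF15 promoter is shown because a KLF15 probe was at least 2-fold apart. This window at chr3:126357409-126357658, on the minus strand of GRCh38.p14 in RefSeq, holds 6 GC boxes, in capitals, a pair of which overlap.
KLF15: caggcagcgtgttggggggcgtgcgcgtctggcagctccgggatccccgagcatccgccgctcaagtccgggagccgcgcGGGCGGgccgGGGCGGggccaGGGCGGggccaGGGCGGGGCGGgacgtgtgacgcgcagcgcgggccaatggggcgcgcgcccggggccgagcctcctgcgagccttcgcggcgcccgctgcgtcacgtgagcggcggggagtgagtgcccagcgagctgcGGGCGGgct

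KLF10, KLF11, KLF13, KLF14, KLF9 and KLF16 encode factors that recruit the corepressor SIN3A. KLF11, known as a gene induced by TGF-beta, was higher in eSAS by both probes. The probe on chromosome 2 of hg18 from 10110207 to 10110266 gave 122 in SAS and 182 in eSAS, a 1.55-fold difference. The probe from 10112097 to 10112156 gave 1122 and 1519, a 1.41-fold difference. KLF10, which is likewise induced by TGF-beta, lay on the other side of 0, at -0.41. KLF13 was higher by both probes, with 5592 and 6328 by the first, a log2 ratio of 0.23, and 167 and 196 by the second, a log2 ratio of 0.28. KLF16 gave 37728 in SAS and 34329 in eSAS by 1 probe, a log2 ratio of -0.08, and 110 and 120 by the other, a log2 ratio of 0.17, so its probes lay on opposite sides of 0. KLF9 lay at 0.23 and KLF14 at -0.0029.

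KLF3, KLF8 and KLF12 encode repressors that bind the corepressor CTBP. KLF8 was the KLF gene with the lowest log2 ratio and was lower by both of its probes, which lie on chromosome X. The probe from 56328164 to 56328223 of hg18 gave 679 in SAS and 494 in eSAS, a 1.32-fold difference, and the probe from 56330818 to 56330877 gave 277 and 156, a 1.70-fold difference. The mean log2 ratio of KLF8 was -0.59. It was 0.57 with normexp fitted on all spots, which is still below the median of all genes under that fit, 0.68. KLF12 was lower as well, at -0.31, and KLF3 lay at 0.12.

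KLF2, KLF4, KLF5, KLF6 and KLF7 act mainly as activators. KLF6, known for its part in the response to injury and in growth control, was higher in eSAS by each of the 3 probes measured on both arrays. These gave 7502 and 8819, then 1366 and 1624, then 49.8 and 63.5, with log2 ratios of 0.29, 0.30 and 0.40, and a 4th probe was not well above background. KLF5 was slightly lower by both probes, with 3785 and 3096 by the first, a log2 ratio of -0.24, and 2410 and 2202 by the second, a log2 ratio of -0.08. KLF4, a factor used to reprogram cells to pluripotency, gave 294 in SAS and 263 in eSAS, a log2 ratio of -0.10. KLF2 and KLF7 had mean log2 ratios of 0.21 and 0.17.

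Of the POU genes, 5 of 14 were measured on both arrays, 1 was measured on a single array, and 8 were not well above background on either. Those on neither included POU1F1, known from the pituitary, POU2F2, known from B cells, and POU4F1, POU4F2 and POU4F3, known from sensory neurons. POU2F3, known from keratinocytes and tuft cells, was the member with the widest gap. Its single probe, on chromosome 11 of hg18 from 119695291 to 119695350, gave 2.66 in SAS, where it was not well above background, and 49.0 in eSAS. POU2F3 was at least 3.96-fold higher in eSAS, with mean pixel intensities of 48.7 and 107.1.

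POU2F1, the broadly expressed OCT1, had 3 probes measured on both arrays with signals of 2117 and 1753, of 467 and 406, and of 17.4 and 20.1. Their log2 ratios were -0.22, -0.15 and 0.26, a gap of 0.48 that was the largest between probes of any member gene. The faintest of these POU2F1 probes had a software error of 0.45 on its log2 ratio. POU3F3, a neural factor, gave 1702 in SAS and 1353 in eSAS, a log2 ratio of -0.28. POU3F1 and POU3F4 lay at 0.05 and -0.26.

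POU5F1, the gene of OCT4, had 4 probes on chromosome 6 of hg18 between 31240157 and 31241706. Their signals were 301 in SAS and 267 in eSAS, 26.1 and 25.3, 30.3 and 31.5, and 24.3 and 18.6. In the first 3 probes the log2 ratios were -0.12, 0.01 and 0.11, and in the 4th the eSAS signal was not well above background, a difference of at least 1.26-fold. The mean log2 ratio of POU5F1 was 0.0018, beside a gap of 0.23 between its own probes. It was 2.16 with normexp fitted on all spots, where the median of all genes was 0.68. The files do not tell its isoforms apart, nor do they separate it from near-identical copies elsewhere in the genome.

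NANOG, a homeobox factor of pluripotent cells, gave 2.58 in SAS and 3.05 in eSAS by its probe on chromosome 12 of hg18 from 7839754 to 7839813 and was not well above background on either array. The probe for its pseudogene NANOGP1 was likewise not well above background. LIN28, now named LIN28A and a block on let-7 maturation, gave 3.20 and 3.52, also not well above background, and both probes of its relative LIN28B were the same. SALL4, a zinc finger partner of OCT4, was measured on both arrays at 278 in SAS and 262 in eSAS, a log2 ratio of -0.03. UTF1, a chromatin factor of embryonic stem cells, gave 652 and 608, a log2 ratio of -0.05. Of the pluripotency factors named, SALL4, UTF1, KLF4 and POU5F1 were thus measured on both arrays within 1.09-fold by their brightest probe, SOX2 in SAS only, and NANOG and LIN28 in neither.

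The 31 member probes not well above background on both arrays had processed signals from 2.56 to 12.5 in SAS and from 3.03 to 14.4 in eSAS. No order and no fold is given for them. Of the 24 member genes with several probes, 9 had 1 or more probes measured on both arrays while another was not, namely SOX1, SOX3, SOX8, SOX17, SOX21, KLF6, KLF15, POU3F1 and POU5F1. In 13 genes at least 2 probes were measured on both arrays, and in 9 of them, or 69.2%, all log2 ratios had 1 sign, against 65.3% of 5334 genes over the whole array. The 9 were SOX4, SOX7, KLF2, KLF3, KLF5, KLF6, KLF8, KLF11 and KLF13.

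The gaps between arrays were widest among faint probes. Over all probes measured on both arrays, the central 95% of log2 ratios ran from -1.06 to 1.02 in the dimmest 25% by mean level and from -0.56 to 0.35 in the brightest. Of the 51 member probes, 2 lay outside the central 95% of probes of like brightness, or 3.92%. They were the KLF15 probe in the dimmest 25% and the brighter KLF11 probe in the next-to-brightest 25%, where the central 95% ran from -0.68 to 0.46. SOX15, also in the dimmest 25%, lay inside it. Spots of the same probe on 1 array pair differed in log2 ratio with an SD of 0.07 over 205 probes, and different probes of the same gene with an SD of 0.21 over 5334 genes, both of them technical spread that leaves out the variation between cultures.

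**Figure D3:**
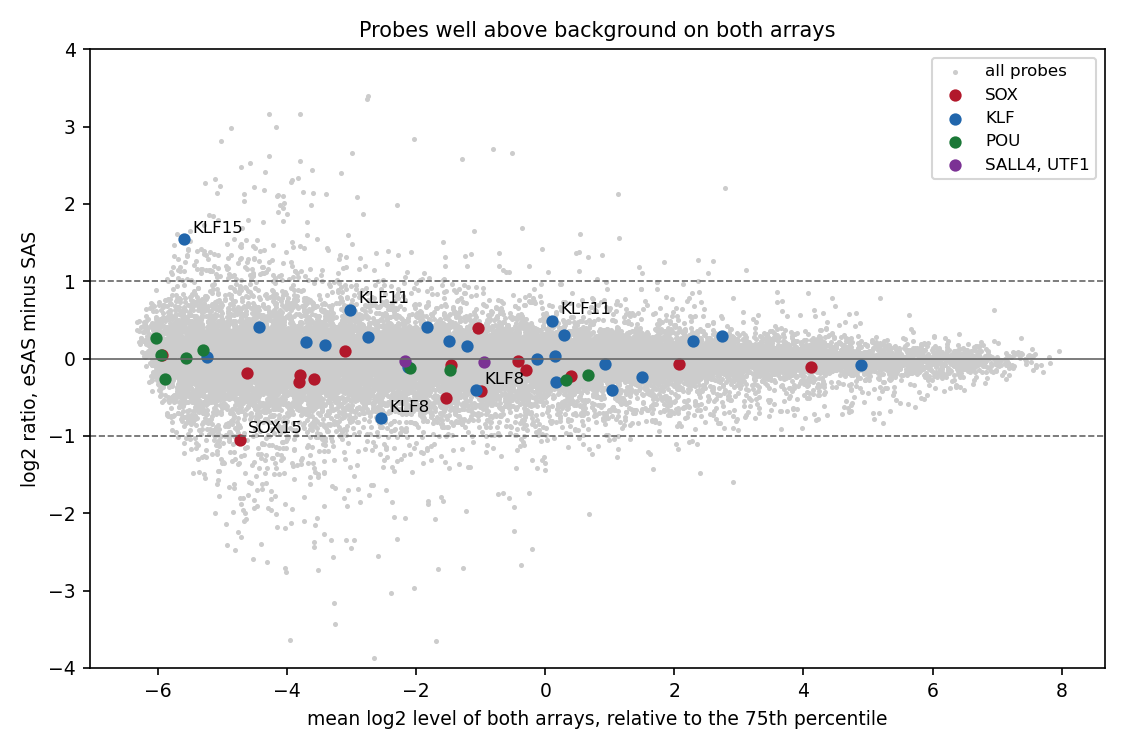
Log2 ratio of eSAS minus SAS against the mean log2 level of both arrays for all 26659 probes well above background on both (grey) and the 51 member probes (coloured by family). Dashed lines mark 2-fold, and 3 probes outside the plotted limit of 4 are not shown; the KLF15 probe lies above the dashed line and the SOX15 probe just past the lower one.

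The 5 probes at least 2-fold apart were faint on both arrays before correction. Their mean pixel intensities ran from 47.8 to 107.4, over local backgrounds from 25 to 31. When the mean pixel signal was used with no background correction, KLF15 was 1.502-fold higher, POU2F3 at least 1.81-fold higher, SOX5 at least 1.36-fold higher, SOX15 1.36-fold lower and SOX2 at least 1.29-fold lower. KLF15 and SOX15 kept their direction, and none of these values or bounds reached 2-fold. A bound was kept only where it pointed toward the array with signal, so those of POU2F3, SOX5 and SOX2 could not turn. The bounds of POU2F3, SOX5 and SOX2 do not show how large their folds were. No member spot was marked as non-uniform, as an outlier or as saturated on either array.

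**Figure D4:**
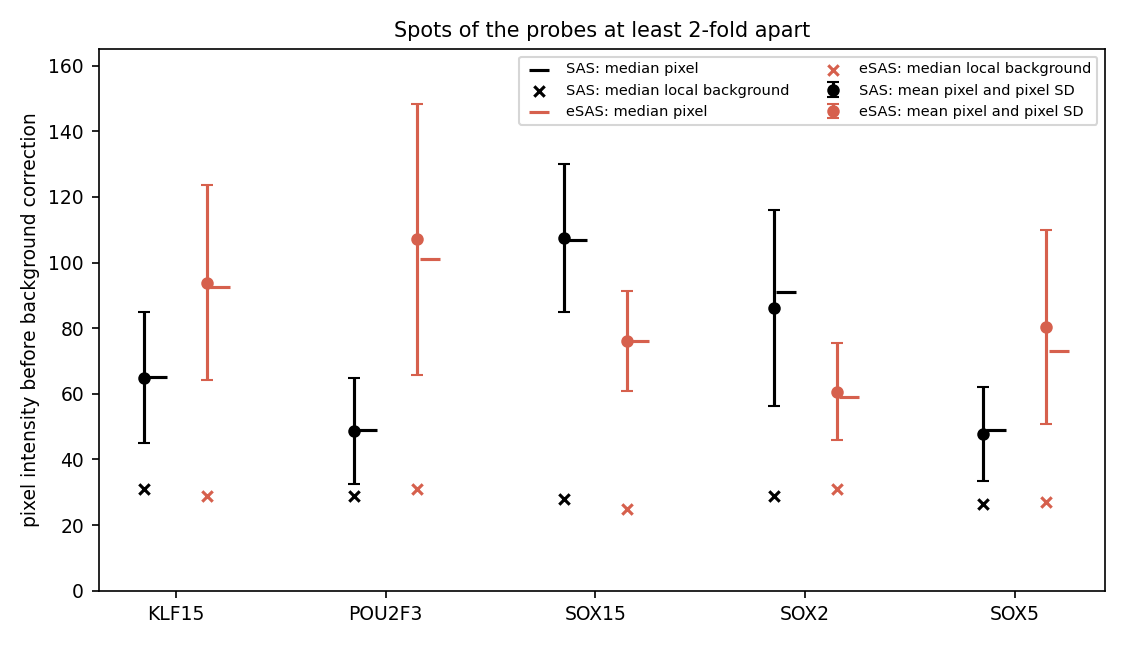
Pixel intensity before background correction of the 5 member probes at least 2-fold apart, SAS in black and eSAS in red. Circles are the mean pixel with the pixel SD as bars, short lines the median pixel and crosses the median local background; the median pixel moved the same way as the mean in all 5.

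Promoters of 38 of the 54 members were in the RefSeq table, and 16 were not matched, SOX15 and POU2F3 among them. Within the 250 bases before the start, searched on both strands, the GC box GGGCGG was in 26 of the 38, or 68.4%, against 42.6% of all 35116 promoters. Their median GC content was 66.8% against 58.0% over all, which moves with the count of GC boxes, and its part in that count was not tested. The CACCC box CCACCC was in 13, or 34.2%, against 31.3%, the SOX core ACAATG in 4, or 10.5%, against 9.29%, and the octamer ATGCAAAT in 1, or 2.63%, against 1.63%. None of these letter strings holds another. A match is a description of the letters and not a site of binding.

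Of 46 other genes of the pluripotency network listed beside the members, 44 were on the array, 25 had a probe measured on both arrays and 15 were not well above background. Their median log2 ratio was -0.0023. Of 45 probes tested, 4, or 8.89%, were at least 1.5-fold higher, against 4.43% of all probes, and 7, or 15.6%, were at least 1.5-fold lower, against 6.12%. TERT, the catalytic subunit of telomerase, was 2.30-fold higher, with 690 in SAS and 1528 in eSAS, and FGF2 was 1.57-fold higher. HMGA2, at 1.61-fold by 1 of its 2 probes, and GLIS1, at least 1.85-fold, were the others that were higher. TBX3 was at least 5.94-fold lower by 1 probe that was not well above background in eSAS and 1.46-fold lower by its other probe, with 117 in SAS and 77.5 in eSAS. DPPA4, measured by 1 probe, was at least 4.63-fold lower and not well above background in eSAS. ID2, an inhibitor of helix-loop-helix factors, was lower by both probes at 1.84-fold and 2.17-fold, and ID3 was 1.65-fold lower, SALL2 1.81-fold lower and L1TD1 at least 1.83-fold lower. Of 26 relatives and partners, such as the SP factors, which share the zinc fingers of the KLF family, and the corepressors SIN3A, CTBP1 and CTBP2, 25 were on the array and 21 were measured on both arrays, with a median log2 ratio of -0.02. Among them TCF7L1 was 1.77-fold lower, and SP2 was at least 2.14-fold higher by 1 of its 2 probes. That SP2 probe was faint, with 12.2 in SAS and 26.4 in eSAS, while the other gave 1158 and 1232, a 1.11-fold difference.

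The labelled cell type was checked against markers. All 11 squamous epithelial markers matched on the array, such as KRT5, TP63 and EPCAM, were well above background on both arrays, with a median log2 ratio of -0.40. Of their 14 probes, 2, or 14.3%, were at least 1.5-fold higher in eSAS, against 4.43% of all probes. Another 3, or 21.4%, were at least 1.5-fold lower, against 6.12% of all, and each share rests on few probes. KRT14, a basal keratin, was lower by both probes, but by 95.4-fold in one and 2.35-fold in the other, and KRT5, its partner keratin, was 1.55-fold lower. DSC3, a desmosomal cadherin, was higher by both probes, at 1.62-fold and 1.68-fold. Of markers of other cells, 4 of 7 of fibroblasts, 4 of 7 of leukocytes and 3 of 5 of endothelium were not well above background on either array. Those measured on both were THY1 of the fibroblast list, at 2667 and 2556, CD14, CD68 and LCP1 of the leukocyte list and VWF of the endothelial list. LCP1 was 1.77-fold higher in eSAS, and LUM, of the fibroblast list, was at least 2.40-fold higher and not well above background in SAS. COL1A1 of the fibroblast list and CDH5 of the endothelial list were well above background in SAS only, at 15.1 and 17.0. The part of these markers in the members' values was not tested. In RNA of whole populations, fewer cells that carry a transcript and less of it per cell cannot be told apart.

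**Figure D5:**
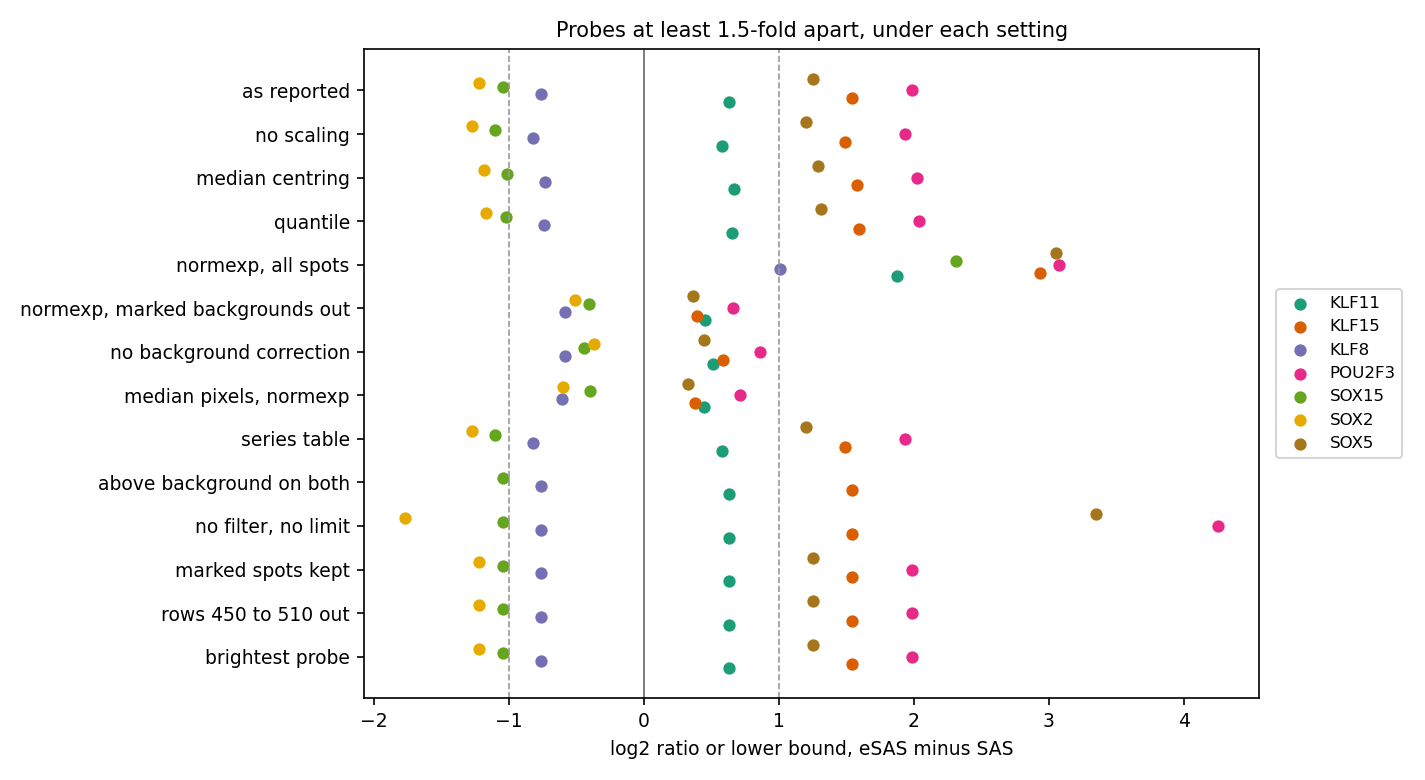
Log2 ratio or lower bound of the 7 member probes at least 1.5-fold apart under each processing setting, 1 row per setting. Dashed lines mark 2-fold. The values or bounds of the 5 probes past 2-fold fall between them without background correction or with a normexp fit without marked backgrounds. With all spots in that fit the median of all genes is 0.68, and KLF8 and SOX15 change side. SOX2 then has no value because its bound pointed the other way.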

How the data were processed

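One-colour arrays of SAS and eSAS RNA, 2 in all, shared 1 slide. The authors deposited the output of Agilent Feature Extraction 10.7.3.1 for each array, with linear intensity values in which background and spatial trends had been corrected and no scaling between arrays had been done. The authors' series table was equal to the processed signal at all 43376 spots. The array procedure was referred to earlier work and is not described further in the sources used here. Coordinates of probes come from the array design (hg18), and exons or UTRs were not assigned.

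Control spots were left out. Processed signals were put on the log2 scale, and the 75th percentile over non-control spots was subtracted array by array. Spots marked non-uniform or as population outliers were dropped, 267 for SAS and 86 for eSAS. A probe was taken as well above background if over 50% of its spots were, and a gene's ratio is the mean over its probes measured on both arrays. With 1 array per population nothing was tested, and the number of arrays limits the precision. The error of a ratio combines the software's errors of both signals. The members and lists were chosen with earlier results of these data known. Full values are printed for SOX2, POU5F1, NANOG, LIN28, SALL4 and UTF1, for genes with a probe at least 1.5-fold apart, for the brightest SOX, KLF and POU genes and for any gene whose probes differed by over 0.5, which made 22 genes. SOX9 and KLF4 were added after their values were seen. The values of 1 member are not reported here, although counts include it. The software was Python 3.11.15 and, for normexp, limma 3.58.1 under R 4.3.3. The counting was tested on simulated data, in which faint probes were left out and all others were well above background on both arrays. That simulation therefore did not cover the lower bounds or the faint probes past 2-fold. There were 13 alternatives, of scaling, background correction, pixel statistic, filters on dim and marked spots, array region and probe choice.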

Additional observations from a re-analysis of the deposited data

How the results depend on the processing

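The reported counts, in the order higher and lower past 2-fold and then higher and lower past 1.5-fold, were 3, 2, 4 and 3 probes, with medians relative to all genes of -0.04 for the members, -0.10 for SOX, 0.12 for KLF and -0.03 for POU. No scaling, median centring, quantile normalization, the series table and keeping marked spots moved no count by over 1.5 times and no median by over the SD of replicate spots. The series table equals the unscaled processed signal, so it repeats no scaling, and no member spot was marked. No scaling and median centring shift every log2 ratio by the same amount, so they could not move these relative medians. With no scaling and with the series table the third count was 3, as the KLF11 probe fell to 1.49-fold, and it was also 3 with the brightest probe per gene. Background correction moved most. With no correction the counts were 0, 0, 2 and 0, and with normexp fitted without marked local backgrounds 0, 0, 1 and 1. With median pixels the first 3 were 0, 0 and 1. With normexp on all spots, the first 3 counts were 25, 0 and 31, the medians were 0.11 for members, 0.11 for SOX, -0.014 for KLF and 1.49 for POU, and the median of all genes moved to 0.68. KLF8 and SOX15 then turned to 0.57 and 2.31, KLF8 staying below that median, and the SOX2 bound pointed the other way and was not kept. Of the genes under 1.5-fold, SOX4 turned to 0.79, POU2F1 to 1.08, SALL4 to 1.03 and UTF1 to 0.44. That fit put the background mean of the eSAS array at -773, against 6.02 when 26 marked spots were left out. Requiring both arrays well above background left 1, 1 and 2 in the first 3 counts. With no filter and no lower limit 5 probes were at least 1.5-fold lower, and the medians were 0.043 for members and 0.031 for SOX. Leaving out rows 450 to 510, which hold 8 member spots, gave a POU median of -0.15. Taking the brightest probe per gene gave 0.028 for KLF and -0.22 for POU. The cause of the other changes was not tested. For single genes, 51 of 256 values moved by over the SD of replicate spots, 2 past 1.5-fold changed sign and 203 stayed within that SD. The 203 include 20 values with marked spots kept and 17 with both arrays required, which could not move. No paired analysis was possible because each population was hybridised once. The slide was not run as a block, as both arrays share it. Low signal limits SOX2, SOX5, SOX15, KLF15 and POU2F3, and members not well above background on either array cannot be compared.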
